A study of Mus musculus with 6 samples.

Results

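Described here are *App*, its family member *Aplp2*, and 7 genes of the proteases that cut their proteins, as measured in single cells of isolated brain microvessels. The 9 genes (*App*, *Aplp2*, *Bace1*, *Bace2*, *Adam10*, *Psen2*, *Ncstn*, *Aph1a*, and *Psenen*) were chosen by symbol for their known roles, and all were among the 32287 genes of the deposited matrices. The animals were untreated male mice, 12 months old, 3 WT mice of genotype C57BL/6J and 3 mice of genotype AppArcSwe, called *TgApp* ArcSwe below. The *TgApp* ArcSwe line carries a human *APP* transgene with the Arctic and Swedish mutations under the *Thy1* promoter, which is active mainly in neurons, and was chosen by the study for its amyloid in vessel walls. Microvessels were pulled from 1 hemisphere of the cerebrum with beads against CD31, digested to single cells, and sequenced as 1 10x library per mouse, so each mouse is 1 replicate.

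The amyloid precursor protein and its relative APLP2 span the membrane and are cut close to it by an alpha- or a beta-secretase, after which gamma-secretase cuts the remaining stump inside the membrane. ADAM10 is an alpha-secretase, BACE1 is the beta-secretase that starts amyloid-beta production, and its relative BACE2 can cut within the amyloid-beta sequence. Gamma-secretase is a complex of a presenilin, nicastrin, APH1, and PEN-2, here represented by *Psen2*, *Ncstn*, *Aph1a*, and *Psenen*.

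After filtering, 44112 of 49059 cells remained, with a per-mouse median depth between 2922 and 5542 UMIs, and 235 cell barcodes were found in more than 1 of the 6 libraries. Clusters were formed without the 9 genes and named from marker lists, and raw UMIs were summed per mouse and class. The 9 classes with at least 20 cells in every mouse were arterial, capillary, venous, and fenestrated endothelial cells, pericytes, smooth muscle cells, microglia, B cells, and T and NK cells. Below, "endothelial" pools all endothelial cells except the fenestrated ones, and "mural" pools pericytes and smooth muscle cells. Levels are in CPM (UMIs of the gene per 1000000 UMIs of the class in that mouse), a relative measure, and are compared between classes and not between genes, because 3' counts do not show how well each transcript is captured. Log2 fold changes from edgeR are on another scale, after TMM normalization of the class totals, and can differ from ratios of the CPM values. Defining markers were in place: *Plvap* stood at 1969 to 2462 CPM in fenestrated cells and 0.346 to 0.852 CPM in capillary cells, *Acta2* at 10802 to 12712 CPM in smooth muscle cells and 106 to 196 CPM in pericytes, and *P2ry12* at 779 to 1503 CPM in microglia. The pericyte class may be mixed. With finer clustering (Leiden resolution 2) it held 559 cells in place of 688. An unnamed cluster of 123 cells led by *Dcn*, *Gpc6*, *Coch*, and *Spp1* then stood apart, and where its cells had been before was not traced. Of the 6499 microglia, 3471 and 1479 came from clusters with median depths of 1260 and 1200 UMIs and median ribosomal shares of 2.04% and 1.88%. The study removed a microglial cluster low in ribosomal genes. Contrasts of microglia with endothelial cells were not rerun without these clusters, so microglial levels below rest on this mix. Endothelial cells with a *Cx3cr1* or *Aif1* UMI were removed. This took 1946 of 13556 cells from WT mice and 3600 of 16700 cells from *TgApp* ArcSwe mice. The smallest library, *TgApp* ArcSwe replicate 2, kept 2379 cells and the largest, *TgApp* ArcSwe replicate 3, kept 13389. In sums over a class, fewer cells with a transcript and fewer transcripts per cell cannot be told apart.

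*App* (ENSMUSG00000022892, chromosome 16, 84949685 to 85173766 in GRCm38, minus strand) was highest in endothelial cells. In pooled endothelial cells it stood at 1613, 1562, and 1469 CPM in the WT mice and 1524, 1604, and 1436 CPM in the *TgApp* ArcSwe mice, so the genotypes overlapped. A UMI of *App* was found in 76.2% ± 2.27 (SD, n = 6 mice) of endothelial cells thinned to 1000 UMIs each.

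Within the endothelium the mean of *App* was highest in fenestrated cells, which line vessels without a BBB. There it stood at 1906, 2053, and 1566 CPM in the WT mice and 1821, 1911, and 1710 CPM in the *TgApp* ArcSwe mice. Fenestrated cells were above capillary cells, which had 1388 to 1582 CPM, in each of the 6 mice, although both ranges met. The log2 fold change between them was 0.33 ± 0.06 (SE, edgeR quasi-likelihood test with the mouse as block, adjusted p = 0.000216). Arterial cells were also above capillary cells, with a mean of 1674 CPM ± 92.3 (SD, n = 6) and a log2 fold change of 0.19 ± 0.03 (edgeR, adjusted p = 6.41e-06). Fenestrated cells were above arterial cells in 5 of 6 mice (mean log2 difference 0.12 on the CPM scale), and no edgeR contrast of these classes was run. Venous cells, at 1496 CPM ± 83.7 (SD, n = 6), did not differ from capillary cells past the threshold (log2 fold change 0.09 ± 0.04, edgeR adjusted p = 0.122).

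Mural cells held less *App*. Pericytes, which wrap capillaries, had 838, 858, and 852 CPM in the WT mice and 829, 809.7, and 829.8 CPM in the *TgApp* ArcSwe mice. Smooth muscle cells had 357, 369, and 418 CPM in the WT mice and 365, 341, and 418 CPM in the *TgApp* ArcSwe mice. No value of either mural class reached an endothelial value, and no smooth muscle value reached a pericyte value. The log2 fold change was -1.66 ± 0.07 between mural and endothelial cells (edgeR, adjusted p = 6.68e-09) and -0.86 ± 0.08 between smooth muscle cells and pericytes (edgeR, adjusted p = 2.47e-07). Endothelial transcripts were also present in mural classes. The summed level of 6 endothelial markers, all detected in every class, was 2725 to 7300 CPM in pericytes and 419 to 1807 CPM in smooth muscle cells, against 15032 to 17126 CPM in endothelial cells, and their part in the mural *App* level was not tested.

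Microglia gave uneven *App* values of 205, 198, and 454 CPM in the WT mice and 409, 253, and 603 CPM in the *TgApp* ArcSwe mice. The summed endothelial markers moved with them, at 721, 721, and 2913 CPM in the WT mice and 2612, 956, and 5574 CPM in the *TgApp* ArcSwe mice. B cells had 190.1 to 492 CPM of *App* and T and NK cells 37.4 to 384 CPM. Endothelial marker transcripts were detected in all of these classes, and their part in the *App* levels was not tested. Per 100 UMIs of the markers, *App* gave 8.38 to 9.88 UMIs in endothelial cells and 8.52 to 10.6 in B cells, ranges that overlapped. The same ratio was 3.65 to 12.7 in T and NK cells, 10.8 to 28.4 in microglia, 11.4 to 29.7 in pericytes, and 23.1 to 81.2 in smooth muscle cells. The lowest microglial, pericyte, and smooth muscle ratios were above the highest endothelial one, and the lymphocyte ratios overlapped the endothelial ones. Between microglia and endothelial cells the log2 fold change of *App* was -2.07 ± 0.26 (edgeR, adjusted p = 0.000146).

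**Figure D1:**
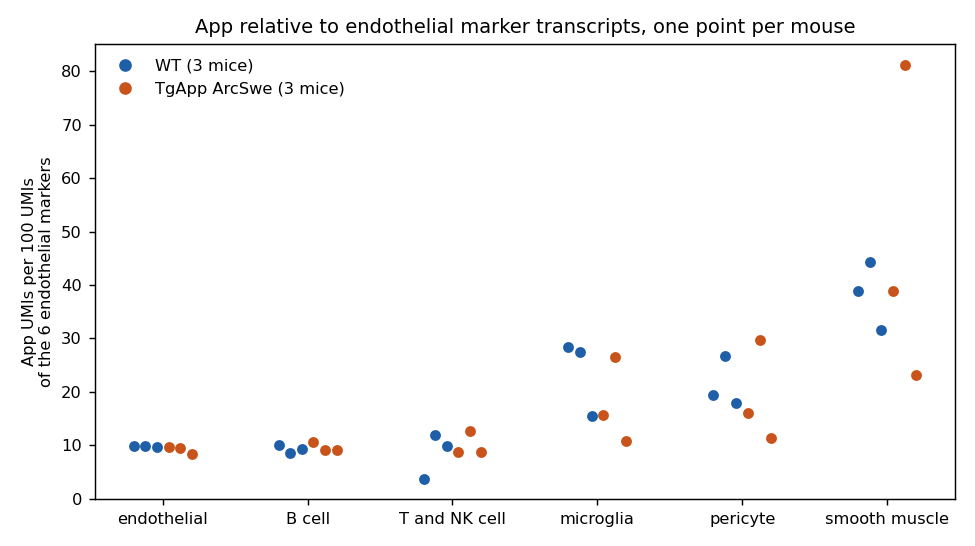
*App* UMIs per 100 UMIs of the 6 endothelial markers (y axis) by cell class (x axis), with 1 point per mouse and the genotype in colour. B cells, at 8.52 to 10.6, sit on the endothelial values of 8.38 to 9.88, and smooth muscle cells, at 23.1 to 81.2, sit above both.

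*Aplp2* (ENSMUSG00000031996, chromosome 9, 31149557 to 31211815 in GRCm38, minus strand), which encodes a widely expressed relative of the precursor protein that lacks the amyloid-beta sequence, had a flatter profile. It was highest in arterial cells, with 792 CPM ± 48.6 (SD, n = 6). It stood at 684 CPM ± 62.2 in venous, 679.7 CPM ± 39.7 in capillary, 632 CPM ± 39.96 in fenestrated, 502 CPM ± 41.9 in pericyte, and 375 CPM ± 35.6 in smooth muscle cells (SD, n = 6 each). Arterial cells exceeded capillary cells by a log2 fold change of 0.25 ± 0.03 (edgeR, adjusted p = 1.97e-07), and mural cells lay below endothelial cells (-0.70 ± 0.05, edgeR adjusted p = 5.49e-07). *Aplp2* was not called between fenestrated and capillary cells (-0.06 ± 0.07, edgeR adjusted p = 0.523) or between smooth muscle cells and pericytes (-0.13 ± 0.09, edgeR adjusted p = 0.252), and whether *App* and *Aplp2* differ in these contrasts was not tested. These tests use TMM scaling. On the CPM scale capillary cells were above fenestrated cells (mean log2 difference 0.11) and pericytes above smooth muscle cells (0.42) in each of the 6 mice. Microglia lay below endothelial cells by a log2 fold change of -1.83 ± 0.23 (edgeR, adjusted p = 0.000148). T and NK cells held 229.7 to 406 CPM, and per 100 endothelial marker UMIs they gave 9.17 to 25.4, above the 3.94 to 4.73 of endothelial cells.

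The start regions of both substrate genes are shown. *App* and *Aplp2* were lower in mural than in endothelial cells, as were *Adam10*, *Psen2*, and *Aph1a*, and a link to these sequences was not tested. The sequences are from RefSeq (GRCm38.p6), run 5′ to 3′ on the minus strand from 250 bases before to 50 bases after the annotated start, and such windows were found for 7 of the 9 genes. Capitals mark GGGCGG, the core of a GC box, which was searched on both strands (reverse complement CCGCCC).
*App*, chr16:85173658-85173957: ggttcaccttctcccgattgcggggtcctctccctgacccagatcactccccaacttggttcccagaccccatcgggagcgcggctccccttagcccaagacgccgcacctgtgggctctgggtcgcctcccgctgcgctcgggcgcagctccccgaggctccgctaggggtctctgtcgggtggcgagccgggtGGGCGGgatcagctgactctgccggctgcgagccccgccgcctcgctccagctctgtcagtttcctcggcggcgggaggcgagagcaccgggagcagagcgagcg
*Aplp2*, chr9:31211799-31212098: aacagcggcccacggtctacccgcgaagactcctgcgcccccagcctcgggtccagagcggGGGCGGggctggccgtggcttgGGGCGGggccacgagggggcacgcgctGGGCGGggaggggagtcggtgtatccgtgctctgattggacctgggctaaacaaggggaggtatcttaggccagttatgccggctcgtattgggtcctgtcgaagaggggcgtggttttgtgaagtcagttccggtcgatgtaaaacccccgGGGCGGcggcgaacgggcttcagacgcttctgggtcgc
The *App* window held 1 GC box in 71.0% GC and the *Aplp2* window 4 in 67.0% GC, and neither held TATAAA or its reverse complement TTTATA. Of all 32817 start windows of this length, 35.6% held the GC box letters and 13.6% the TATA letters, and the median GC content was 52.7%.

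Of the beta-secretase genes, *Bace1* (ENSMUSG00000032086, chromosome 9, 45838580 to 45864399 in GRCm38, plus strand) was highest in smooth muscle cells. There it stood at 66.3, 64.6, and 62.8 CPM in the WT mice and 63.7, 61.4, and 63.3 CPM in the *TgApp* ArcSwe mice. In pericytes it was 10.6, 45.8, and 33.9 CPM in the WT mice and 25.99, 38.6, and 31.4 CPM in the *TgApp* ArcSwe mice, on 3 to 39 UMIs per mouse. Every smooth muscle value lay above every pericyte value, and the pericyte values spread widely. The log2 fold change was 1.31 ± 0.18 between smooth muscle cells and pericytes (edgeR, adjusted p = 1.01e-05) and 1.84 ± 0.05 between mural and endothelial cells (edgeR, adjusted p = 4.24e-10). Smooth muscle cells, which had the lowest mean *App* of the vascular classes, thus had the highest *Bace1*. They made up 3560 of the 4248 mural cells, and pericytes were not tested against endothelial cells.

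Among endothelial classes *Bace1* was 19.5 CPM ± 2.98 in arterial, 19.1 CPM ± 1.73 in capillary, 17.1 CPM ± 4.21 in venous, and 21.8 CPM ± 3.12 in fenestrated cells (SD, n = 6 each), and none of the other classes differed from capillary cells past the threshold (edgeR, adjusted p = 0.483, 0.547, and 0.276). After thinning to 1000 UMIs, 6.06% ± 0.754 (SD, n = 6) of smooth muscle cells and 2.001% ± 0.2804 of endothelial cells had a UMI of *Bace1*, against 0.448% ± 0.531 of B cells. Microglia held 2.03 to 16.5 CPM, below endothelial cells by a log2 fold change of -0.72 ± 0.25 (edgeR, adjusted p = 0.0302).

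*Bace2* (ENSMUSG00000040605, chromosome 16, 97356742 to 97442936 in GRCm38, plus strand) was seen mainly in fenestrated and venous endothelial cells. In fenestrated cells it reached 53.7, 30.8, and 38.8 CPM in the WT mice and 39.8, 50.7, and 34.4 CPM in the *TgApp* ArcSwe mice. Venous cells had 11.4, 9.69, and 20.2 CPM in the WT mice and 20.5, 12.6, and 14.6 CPM in the *TgApp* ArcSwe mice. Capillary cells had 0.603 to 1.15 CPM and arterial cells 1.03 to 2.98 CPM, so neither range met the venous range, and the venous range did not meet the fenestrated range.

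The log2 fold change of *Bace2* against capillary cells was 5.57 ± 0.26 in fenestrated cells (edgeR, adjusted p = 3e-14) and 4.17 ± 0.26 in venous cells (edgeR, adjusted p = 1.76e-15). These are low counts, 17 to 36 UMIs per mouse in fenestrated and 6 to 35 in venous cells. After thinning, 2.703% ± 1.46 of fenestrated cells (SD, n = 6) had a UMI, and no thinned B, T, or NK cell did. Smooth muscle cells held 0.673 to 1.303 CPM. Pericytes held 3.27 to 7.80 CPM in 5 mice and 42.8 CPM in *TgApp* ArcSwe replicate 2, a value that rested on 10 UMIs in 16.7% of 42 cells. At cluster resolution 2 that mouse had 23 pericytes in place of 42, so the class may hold other cells, and their part in this value was not tested. *Bace2* did not pass the filter on low counts in the genotype test of pericytes or in their contrast with smooth muscle cells. Between mural and endothelial cells *Bace2* differed by -0.12 ± 0.36 (edgeR, adjusted p = 0.777). In microglia, with a mean of 0.458 CPM, it was below endothelial cells by -2.21 ± 0.46 (edgeR, adjusted p = 0.00232). *Bace2* did not pass the filter in microglial sums alone and entered that contrast through the endothelial sums. A lower microglial value was therefore set by the filter, and nothing is read from this call.

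**Figure D2:**
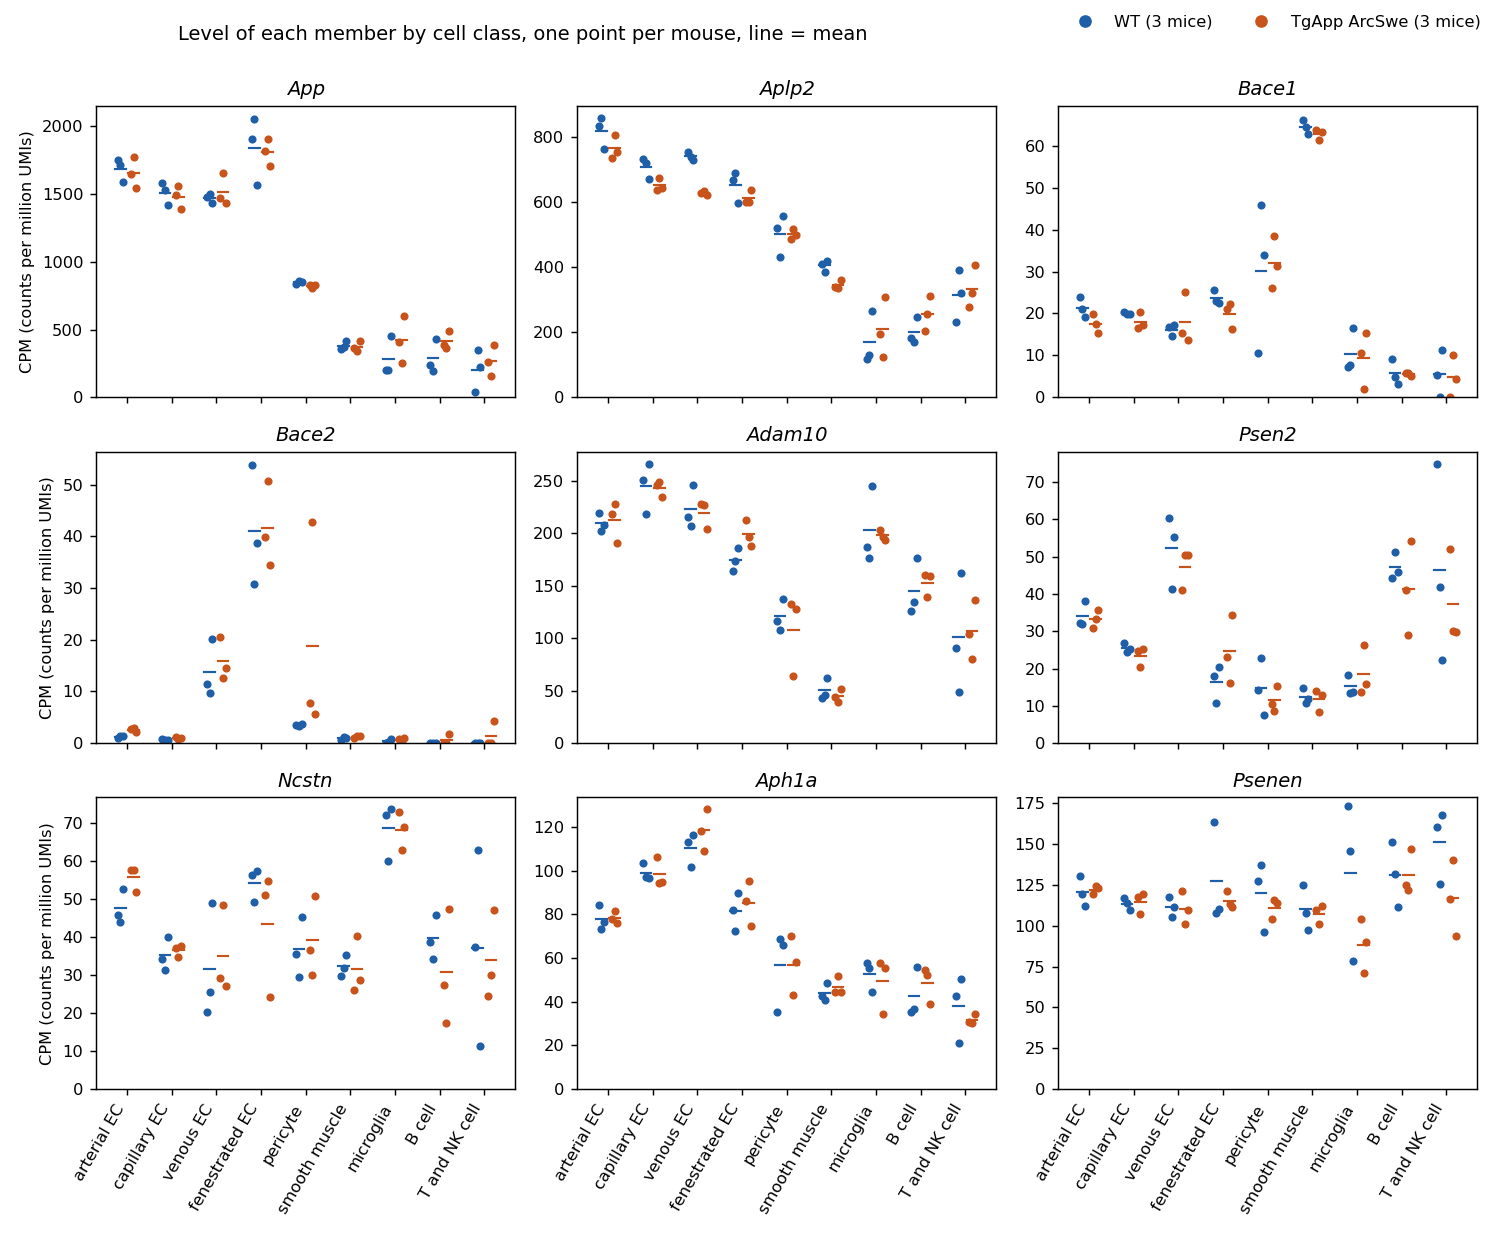
CPM (y axis, own scale per panel) of the 9 genes by cell class (x axis; EC, endothelial cell), with 1 point per mouse and the genotype in colour. *App* falls from endothelial cells to smooth muscle cells, *Bace1* peaks in smooth muscle cells at 61.4 to 66.3 CPM, and *Bace2* is seen mainly in fenestrated and venous cells, apart from 42.8 CPM in the pericytes of *TgApp* ArcSwe replicate 2.

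*Adam10*, the alpha-secretase gene (ENSMUSG00000054693, chromosome 9, 70678997 to 70780229 in GRCm38, plus strand), was highest in capillary cells, at 244 CPM ± 16.2 (SD, n = 6), and was detected in every class. Pooled endothelial cells had 247, 218, and 253 CPM in the WT mice and 242, 249.97, and 223 CPM in the *TgApp* ArcSwe mice. Microglia had 187, 177, and 245 CPM in the WT mice and 204, 196, and 194 CPM in the *TgApp* ArcSwe mice. The ranges of both classes overlapped, and the log2 fold change between them was -0.08 ± 0.10 (edgeR, adjusted p = 0.474).

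Pericytes had 64.3 to 137 CPM of *Adam10* and smooth muscle cells 38.8 to 62.04 CPM, below every endothelial value. The log2 fold change was -1.92 ± 0.09 between mural and endothelial cells (edgeR, adjusted p = 1.8e-08) and -0.99 ± 0.12 between smooth muscle cells and pericytes (edgeR, adjusted p = 1.65e-06). Against capillary cells it was lower in arterial (-0.19 ± 0.04, edgeR adjusted p = 0.000166) and fenestrated cells (-0.33 ± 0.08, edgeR adjusted p = 0.00142), and venous cells did not differ past the threshold (-0.06 ± 0.05, edgeR adjusted p = 0.452). Arterial and fenestrated cells therefore had more *App* and less *Adam10* than capillary cells. B cells held 125 to 177 CPM, and per 100 endothelial marker UMIs this was 2.96 to 6.004 against 1.301 to 1.68 in endothelial cells.

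The gamma-secretase genes did not share a profile. *Psen2* (ENSMUSG00000010609, chromosome 1, 180227004 to 180263438 in GRCm38, minus strand), which encodes a catalytic presenilin, was highest in venous cells, at 60.5, 41.2, and 55.3 CPM in the WT mice and 40.98, 50.4, and 50.5 CPM in the *TgApp* ArcSwe mice. Capillary cells had 20.4 to 26.97 CPM and arterial cells 30.9 to 38.2 CPM, so the 3 ranges did not overlap. Against capillary cells the log2 fold change was 1.09 ± 0.10 in venous cells (edgeR, adjusted p = 4.63e-11) and 0.47 ± 0.07 in arterial cells (edgeR, adjusted p = 3.9e-06). Mural cells lay at 8.42 to 14.7 CPM, below endothelial cells (-1.08 ± 0.09, edgeR adjusted p = 1.26e-06), and microglia were also below them (-0.70 ± 0.16, edgeR adjusted p = 0.00419).

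*Aph1a* (ENSMUSG00000015750, chromosome 3, 95893969 to 95898288 in GRCm38, plus strand), which encodes a scaffold subunit, was also highest in venous cells, at 102 to 128 CPM. It was above capillary cells there by a log2 fold change of 0.31 ± 0.06 (edgeR, adjusted p = 0.000162) and below them in arterial cells (-0.32 ± 0.04, edgeR adjusted p = 9.89e-07). Mural cells had 42.1 to 50.6 CPM, under every endothelial value of 92.8 to 102 CPM, with a log2 fold change of -0.89 ± 0.05 (edgeR, adjusted p = 8.17e-08). Microglia lay below endothelial cells by -0.75 ± 0.13 (edgeR, adjusted p = 0.000755). Veins thus had the highest level of both *Psen2* and *Aph1a*, and arteries had more *Psen2* and less *Aph1a* than capillaries.

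*Ncstn* (ENSMUSG00000003458, chromosome 1, 172066013 to 172082795 in GRCm38, minus strand), which encodes nicastrin, was highest in microglia. Microglial values were 72.1, 59.9996, and 73.5 CPM in the WT mice and 72.8, 62.8, and 68.7 CPM in the *TgApp* ArcSwe mice, each above the endothelial values of 33.5 to 44.2 CPM. The log2 fold change between both classes was 0.98 ± 0.10 (edgeR, adjusted p = 5.48e-05). Among endothelial cells *Ncstn* was above the capillary level in arterial (0.54 ± 0.06, edgeR adjusted p = 2.86e-08) and fenestrated cells (0.49 ± 0.15, edgeR adjusted p = 0.0113), and mural cells did not differ from endothelial cells past the threshold (-0.12 ± 0.07, edgeR adjusted p = 0.145).

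*Psenen* (ENSMUSG00000036835, chromosome 7, 30561863 to 30563627 in GRCm38, minus strand), which encodes the small subunit PEN-2, was the most even of the members between classes. Class means ran from 109 CPM ± 9.78 in smooth muscle cells to 134 CPM ± 27.8 in T and NK cells (SD, n = 6 each). Of the 6 contrasts between classes, only arterial against capillary was called, at a log2 fold change of 0.11 ± 0.04 (edgeR, adjusted p = 0.0208). In the annotation used, *App*, *Bace1*, *Psen2*, *Ncstn*, *Aph1a*, and *Psenen* each overlap at least 1 gene on the opposite strand, among them *Rnf214* for *Bace1*, *Copa* for *Ncstn*, *Car14* for *Aph1a*, and *U2af1l4* for *Psenen*.

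**Figure D3:**
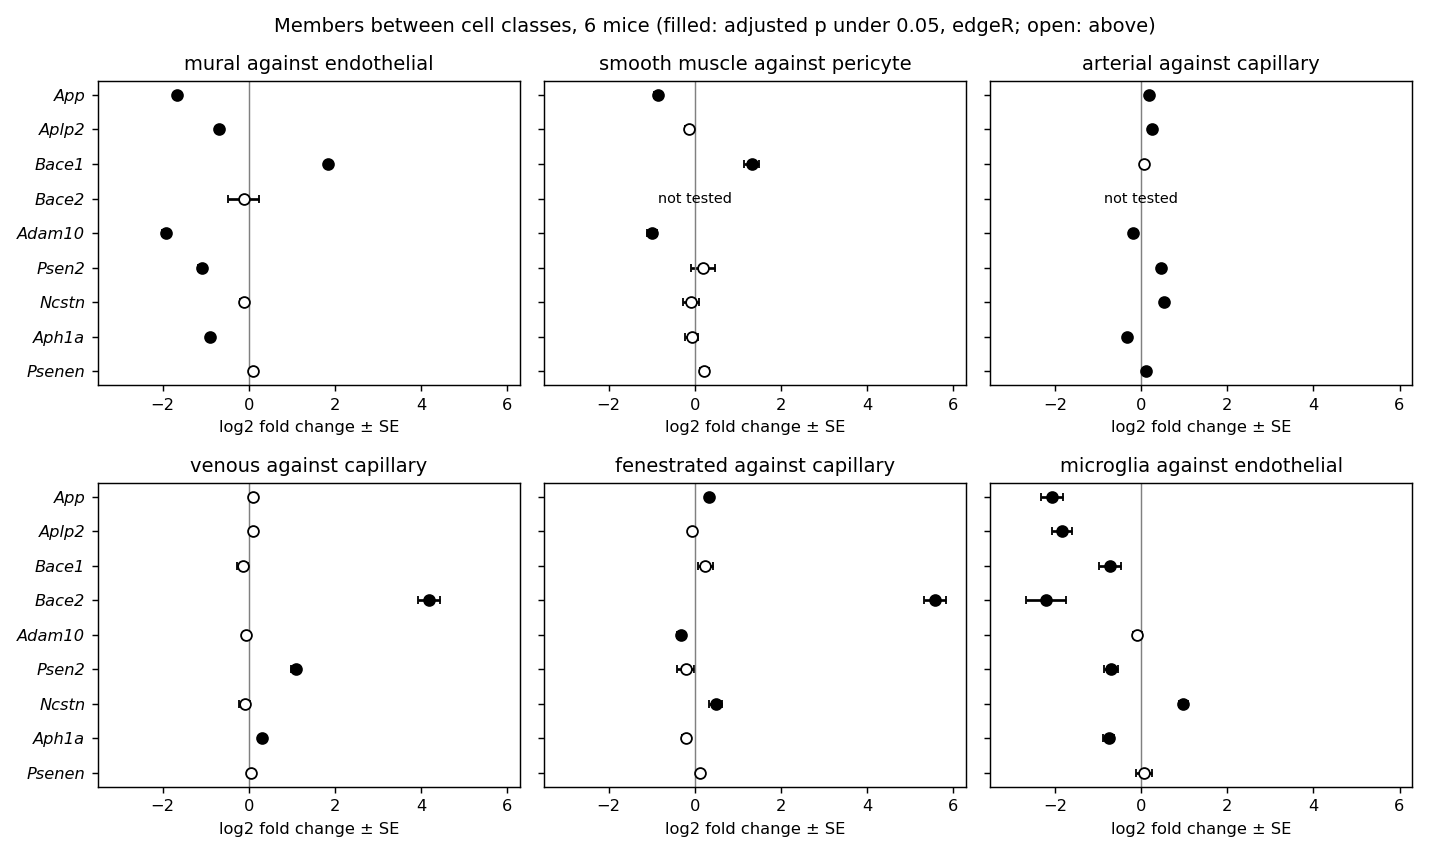
Log2 fold change with its SE (x axis) for each member (y axis) in 6 contrasts between cell classes over 6 mice, from edgeR. Filled points have an adjusted p under 0.05, and the widest differences are those of *Bace2*, 5.57 ± 0.26 in fenestrated and 4.17 ± 0.26 in venous against capillary cells.

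Between mural and endothelial cells 6 of 9 members were called, 1 higher and 5 lower in mural cells, where 74.2% of all genes tested were called. Their median absolute log2 fold change was 0.89, beside 0.54 over all genes. Between smooth muscle cells and pericytes 3 of 8 were called, where the share over all genes was 47.0%. The share over all genes was 48.7% for arterial against capillary cells (7 of 8 members, 5 higher and 2 lower), 33.4% for venous against capillary (3 of 9, all higher), and 39.5% for fenestrated against capillary (4 of 9, 3 higher and 1 lower). For microglia against endothelial cells it was 72.7%, and 7 of 9 members were called, 1 higher and 6 lower. The lower ones include *Bace2*, which passed the filter there only through the endothelial sums. Outside the arterial contrast, members were thus called about as often as other genes.

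Exact two-sided sign-flip permutation tests of log2(CPM + 1) were run between neighbouring classes in the order of each gene, 72 in all, over 6 mice. The smallest p they can give is 0.0312, and with Benjamini-Hochberg adjustment it became 0.107, so no step passed. The neighbours were set by the mean order of the same mice, so the steps describe that order and are no independent test of it. As a description, all 6 mice shared the order of capillary, pericyte, and smooth muscle cells for *App*, of smooth muscle cells and pericytes for *Bace1*, and of fenestrated and venous cells for *Bace2*. Venous and capillary cells for *App*, and venous and B cells for *Psen2*, had the order of the means in 3 of 6 mice.

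Over the means of the 9 classes in the WT mice, the genes with the profiles most like *App*, among 10092 genes with at least 20 CPM in some class, were *Gnai2*, *Lars2*, and *Cpd* (Pearson r = 0.985, 0.9803, and 0.975). *Aplp2* was most like *Macrod2*, *Txndc17*, and *Galnt18* (r = 0.985, 0.982, and 0.981). *Bace1* was most like *Rbpms*, *Iscu*, and *Mmadhc* (r = 0.983, 0.976, and 0.967), and *Bace2* most like *Sema3e*, *Cxxc4*, and *Upp1* (r = 0.954, 0.952, and 0.942). For *Adam10* these genes were *Exoc5*, *Ormdl2*, and *Itga6* (r = 0.973, 0.972, and 0.966). For *Psen2* they were *Diaph1*, *Lbr*, and *Hook1* (r = 0.946, 0.945, and 0.936), and for *Ncstn* *Zbtb7a*, *Hmox2*, and *St3gal5* (r = 0.942, 0.932, and 0.910). For *Aph1a* they were *Hsd3b7*, *Alas1*, and *Ptpn12* (r = 0.987, 0.973, and 0.970), and for *Psenen* *Gramd1b*, *Wac*, and *Nmd3* (r = 0.948, 0.942, and 0.938). These are descriptions over 9 points from the same 3 libraries, and endothelial marker UMIs were present in every class.

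A further 39 genes tied to App processing were examined in 5 lists. The list of 12 ADAM10 and ADAM17 partners and metalloprotease inhibitors was the longest. It gave most of the 3 widest called differences per contrast. The widest of all, that of *Apbb1ip* in microglia, came from another list. *Tspan15*, a tetraspanin that escorts ADAM10 to the cell surface, had 131 CPM ± 18.5 in fenestrated cells, 60.4 CPM ± 20.8 in pericytes, and 5.47 CPM ± 0.845 in capillary cells (SD, n = 6 each). Its log2 fold change was 4.63 ± 0.13 in fenestrated against capillary cells (edgeR, adjusted p = 2.45e-18), -2.58 ± 0.26 in arterial against capillary cells (edgeR, adjusted p = 1.16e-08), and -2.36 ± 0.19 in smooth muscle cells against pericytes (edgeR, adjusted p = 1.68e-08).

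*Tspan5*, another ADAM10 partner of the same tetraspanin group, had the opposite order, with 752 CPM ± 107 in capillary and 187 CPM ± 69.9 in fenestrated cells (SD, n = 6 each, log2 fold change -2.00 ± 0.10, edgeR adjusted p = 9.36e-14). It was lower in mural than in endothelial cells (-3.09 ± 0.19, edgeR adjusted p = 1.4e-07) and in smooth muscle cells than in pericytes (-2.28 ± 0.15, edgeR adjusted p = 1.41e-09). *Tspan33*, of the same group, was seen in microglia, at 28.4 CPM ± 3.57 (SD, n = 6, log2 fold change 5.58 ± 0.40 against endothelial cells; edgeR, adjusted p = 6.63e-06).

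Among inhibitors of metalloproteases, *Timp2* was higher in arterial than in capillary cells (3.16 ± 0.13, edgeR adjusted p = 5.21e-16), in mural than in endothelial cells (2.19 ± 0.17, edgeR adjusted p = 8.43e-07), and in smooth muscle cells than in pericytes (1.57 ± 0.17, edgeR adjusted p = 5.23e-07). *Timp3* was higher in fenestrated than in capillary cells (2.14 ± 0.08, edgeR adjusted p = 1.63e-16), at 2962 CPM ± 572 against 693 CPM ± 141 (SD, n = 6 each). *Reck*, a membrane-anchored inhibitor, was lower in venous than in capillary cells (-1.31 ± 0.07, edgeR adjusted p = 9.73e-17). Of these partners and inhibitors, 5 rose and 4 fell of 9 tested in mural against endothelial cells, 3 rose and 3 fell of 9 in smooth muscle cells against pericytes, and 4 rose and 3 fell of 9 in arterial, 0 rose and 4 fell of 9 in venous, and 3 rose and 4 fell of 9 in fenestrated against capillary cells. In microglia 3 rose and 6 fell of 10. The shares called over all genes in these contrasts are those given above for the members.

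Veins had less *Apba1*, which encodes an App-binding adaptor (-2.40 ± 0.13, edgeR adjusted p = 2.51e-17), and arteries had more (1.73 ± 0.04, edgeR adjusted p = 1.46e-19). *Itm2c*, which encodes a BRI family protein, was higher in venous than in capillary cells (1.204 ± 0.06, edgeR adjusted p = 9.89e-18). Microglia had more *Apbb1ip* (6.87 ± 0.55, edgeR adjusted p = 1.17e-05) and more *Gsap*, which encodes the gamma-secretase activating protein (5.71 ± 0.40, edgeR adjusted p = 5.46e-06). *Gsap* stood at 91.96 CPM ± 18.4 in microglia and 54.1 CPM ± 26.9 in T and NK cells (SD, n = 6 each). *Sort1*, which encodes the sorting receptor sortilin, was higher in mural than in endothelial cells (2.05 ± 0.07, edgeR adjusted p = 2.62e-09).

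In mural against endothelial cells, 4 rose and 2 fell of 9 App-binding adaptors and inhibitors, 4 rose and 2 fell of 9 trafficking genes, 4 rose and 1 fell of the 5 other App family and secretase genes, and 1 rose and 1 fell of 3 gamma-secretase modulators. In microglia against endothelial cells 5 rose and 2 fell of 9 adaptors and inhibitors, 6 rose and 1 fell of 9 trafficking genes, 2 rose and 2 fell of the 5 other family genes, and 1 rose and 0 fell of 3 modulators. Over all 39 listed genes, 28 of 35 tested were called between mural and endothelial cells (74.2% of all genes), 17 of 31 between smooth muscle cells and pericytes (47.0% of all genes), and 28 of 36 in microglia (72.7% of all genes). Against capillary cells 19 of 35 were called in arterial (48.7% of all genes), 12 of 33 in venous (33.4%), and 16 of 33 in fenestrated cells (39.5%). These counts are near the shares over all genes, and nothing particular to the lists is read from them.

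WT and *TgApp* ArcSwe mice were then compared within each endothelial and mural class and in microglia, to ask whether vessels of a brain with vascular amyloid hold other levels of these transcripts. B cells and T and NK cells were not tested for genotype. The values are those of the mouse genes. The study names mouse *Clec7a* and human *NOTCH3* as additions to its reference and no human *APP*, so the *App* count does not check the transgene, and whether human reads were counted as *App* was not tested. *Thy1*, the gene whose promoter drives the transgene, lay at 0 to 2.36 CPM in every endothelial and mural class and at 107 to 205 CPM in T and NK cells.

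No member was called in any class tested, and 1 of them, *Ncstn* in arterial cells, had an unadjusted p under 0.05 (0.26 ± 0.11; edgeR, unadjusted p = 0.047, adjusted p = 1). The filter on low counts left 7 members to test in pericytes and 8 in mural, microglial, arterial, and smooth muscle sums. All 9 were tested in the other classes. Of the 11082 genes tested in arterial cells, 449 (4.05%) had an unadjusted p under 0.05, and DESeq2 called 12, none of them a member. In endothelial cells the *App* log2 fold change (*TgApp* ArcSwe against WT) was 0.00 ± 0.12 (SE, edgeR, adjusted p = 1), and 0% of 13466 genes were called, with 586 at an unadjusted p under 0.05 and 10 called by DESeq2, none of them a member. In mural cells *App* changed by 0.04 ± 0.12 (edgeR, adjusted p = 1), and 0% of 11295 genes were called, with 319 at an unadjusted p under 0.05 and 0 called by DESeq2. In the other vascular classes the *App* log2 fold change was 0.00 ± 0.13 in arterial, 0.01 ± 0.12 in capillary, 0.08 ± 0.17 in venous, 0.00 ± 0.18 in fenestrated, -0.01 ± 0.19 in pericyte, and 0.01 ± 0.12 in smooth muscle cells (edgeR, adjusted p from 0.999 to 1).

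Over all genes, 0.00902% were called in arterial cells and 0.00910% in microglia, in both classes the gene *Ptchd1*, which was named after its values were seen. In microglia 826 genes (7.52%) had an unadjusted p under 0.05. In capillary, venous, pericyte, smooth muscle, and fenestrated cells 0% were called by edgeR, while 605, 351, 210, 320, and 298 genes had an unadjusted p under 0.05 and DESeq2 called 18, 0, 0, 0, and 1.

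In microglia the *App* log2 fold change was 0.62 ± 0.39 (edgeR, adjusted p = 0.613) and that of *Psenen* was -0.59 ± 0.35 (edgeR, adjusted p = 0.612). *Psenen* stood at 173, 146, and 78.6 CPM in the WT mice and 104, 70.9, and 89.98 CPM in the *TgApp* ArcSwe mice, so the genotypes overlapped through WT replicate 3. As given above, the summed endothelial markers in microglia were high in the mice with high *App*, and their part in the difference was not tested. The clusters that made up most microglia also differed. A cluster with a median ribosomal share of 4.76% held most of them in WT replicates 1 and 2, one with 1.88% in WT replicate 3, and one with 2.04% in the *TgApp* ArcSwe mice. Without the 2 low-ribosomal clusters the log2 fold change of *App* was 0.06 and that of *Psenen* 0.04 (edgeR, adjusted p = 1 for both), but this fit rested on 8 cells in *TgApp* ArcSwe replicate 2, below the minimum used elsewhere, on 34 in *TgApp* ArcSwe replicate 3, and on 55 in WT replicate 3. Removing the clusters and having few cells in these mice cannot be told apart. Leaving out 1 mouse at a time moved *App* between 0.27 (without *TgApp* ArcSwe replicate 3) and 1.01 (without WT replicate 3), and *Psenen* between -0.89 (without WT replicate 3) and -0.33 (without WT replicate 1), with no call (edgeR). For *App* the genotype effect in microglia exceeded that in endothelial cells by 0.55 ± 0.48 (edgeR interaction, adjusted p = 0.654). In that interaction 0% of genes were called, with 1041 at an unadjusted p under 0.05, and in the interaction of mural and endothelial cells 0% were called, with 494.

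**Figure D4:**
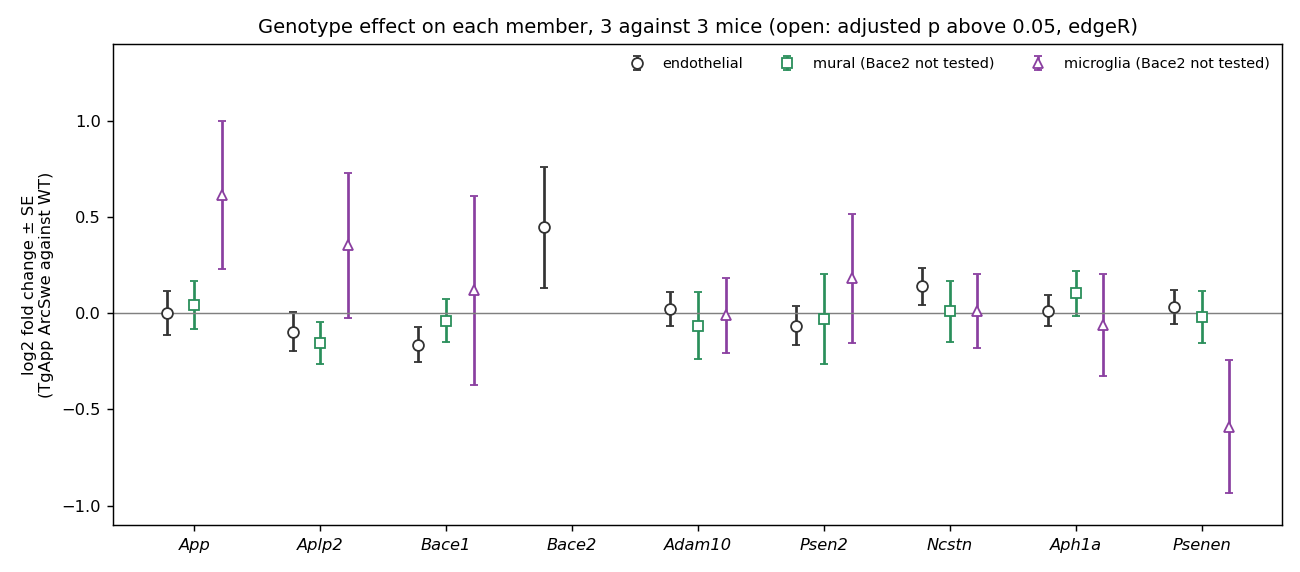
Log2 fold change of *TgApp* ArcSwe against WT with its SE (y axis) for each member (x axis) in the endothelial, mural, and microglial classes, 3 mice against 3, from edgeR. All points are open, since no member was called, and *App* in microglia, at 0.62 ± 0.39, lies farthest above 0.

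*Aplp2* was described further because its genotypes separated in several vascular classes, which was seen after its values were known. In venous cells it was 754, 738, and 730.1 CPM in the WT mice and 628, 634, and 623 CPM in the *TgApp* ArcSwe mice. In smooth muscle cells it was 410.2, 385, and 419 CPM in the WT mice and 339.8, 335, and 359 CPM in the *TgApp* ArcSwe mice. In pooled endothelial cells it was 763, 748, and 711 CPM in the WT mice and 667, 703, and 675 CPM in the *TgApp* ArcSwe mice. In these 3 classes every *TgApp* ArcSwe value was below every WT value, as the genotypes were apart, in either direction, for 9.32% of all genes in venous, 9.23% in smooth muscle, and 10.9% in endothelial cells on this scale. None was called: the log2 fold change was -0.20 ± 0.15 in venous, -0.20 ± 0.11 in smooth muscle, -0.16 ± 0.11 in mural, and -0.09 ± 0.10 in endothelial cells (edgeR, adjusted p from 0.992 to 1). In pericytes it was 0.03 ± 0.19 (edgeR, adjusted p = 1), with the genotypes overlapping. In microglia the direction was the opposite, at 116, 131, and 265 CPM in the WT mice and 195, 124, and 309 CPM in the *TgApp* ArcSwe mice, ranges that overlapped (0.35 ± 0.38, edgeR adjusted p = 0.721).

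**Figure D5:**
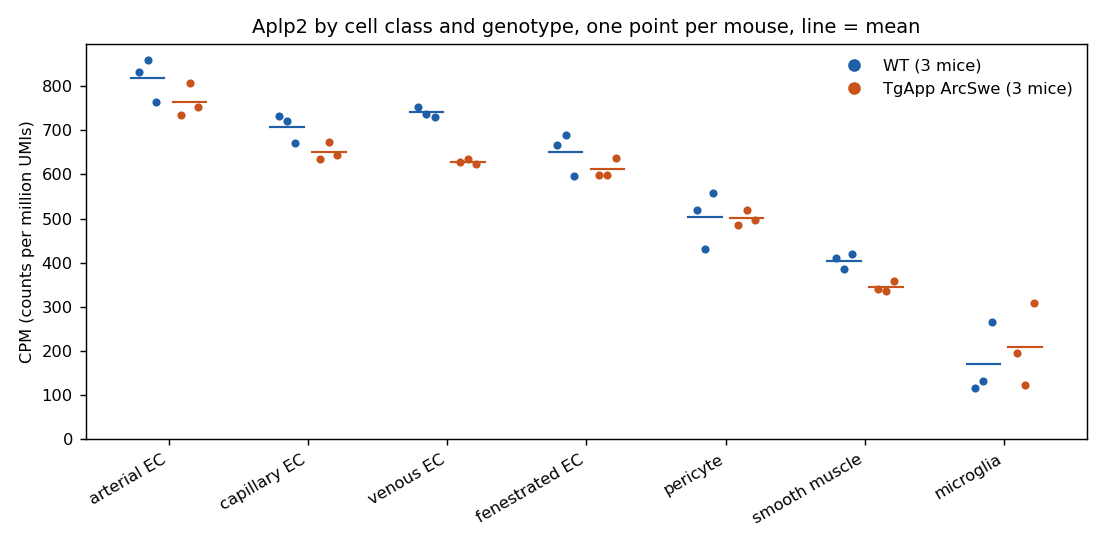
*Aplp2* CPM (y axis, linear from 0) in 7 cell classes (x axis; EC, endothelial cell), with 1 point per mouse, the genotype in colour, and a line at each mean. The genotypes do not overlap in venous (730.1 to 754 against 623 to 634 CPM) or smooth muscle cells (385 to 419 against 335 to 359 CPM), and they overlap in the other 5 classes shown.

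Such separation of 3 mice from 3 was common over all genes. On the CPM scale used above, the genotypes did not overlap for 10.9% of genes in endothelial, 8.32% in mural, 15.9% in microglia, 9.92% in arterial, 11.4% in capillary, 9.32% in venous, 8.42% in pericyte, 9.23% in smooth muscle, and 9.49% in fenestrated classes. Among the members that passed the filter on low counts, those apart were *Aplp2* in endothelial, mural, venous, and smooth muscle cells, *Bace1* in endothelial and fenestrated cells, and *App* in pericytes, all lower in *TgApp* ArcSwe mice, and *Adam10* in fenestrated cells, which was higher. *Bace2* did not pass the filter in arterial, pericyte, or mural sums, where it was higher without overlap, at 1.03 to 1.36 against 2.12 to 2.98 CPM in arterial cells, 3.27 to 3.76 against 5.64 to 42.8 CPM in pericytes, and 0.922 to 1.47 against 1.64 to 6.74 CPM in mural cells, on 1 to 14 UMIs per mouse. The mural sums include the pericytes. The shares above cover only genes that passed the filter, so no share stands beside these sparse counts, and no genotype difference is read from them.

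With the TMM scaling of the test, the shares over all genes were 10.1% in endothelial, 7.92% in mural, 15.1% in microglia, 9.61% in arterial, 10.6% in capillary, 9.10% in venous, 8.27% in pericyte, 9.14% in smooth muscle, and 9.65% in fenestrated classes. On that scale *Aplp2* was lower without overlap in venous, smooth muscle, and mural cells but not in pooled endothelial cells. *Aph1a* in venous, *Ncstn* in arterial, *Bace2* in capillary, and *Adam10* in fenestrated cells were higher without overlap. Endothelial *Bace1* was 20.5, 19.98, and 19.4 CPM in the WT mice and 17.4, 18.4, and 16.8 CPM in the *TgApp* ArcSwe mice, with a log2 fold change of -0.16 ± 0.09 (edgeR, adjusted p = 0.992), and its separation was seen on the CPM scale only.

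The other members moved little in endothelial cells. Their log2 fold changes were 0.02 ± 0.09 for *Adam10*, -0.06 ± 0.10 for *Psen2*, 0.14 ± 0.10 for *Ncstn*, 0.01 ± 0.08 for *Aph1a*, 0.03 ± 0.09 for *Psenen*, and 0.45 ± 0.32 for the sparse *Bace2* (edgeR, adjusted p from 0.992 to 0.998). Without 1 mouse the *Bace2* value lay between 0.21 (without *TgApp* ArcSwe replicate 1) and 0.76 (without WT replicate 3). In fenestrated cells *Psen2* was 17.9, 10.8, and 20.4 CPM in the WT mice and 23.2, 16.2, and 34.4 CPM in the *TgApp* ArcSwe mice, ranges that overlapped, with a log2 fold change of 0.65 ± 0.40 (edgeR, adjusted p = 0.999). The median absolute log2 fold change over the members was 0.06 for endothelial, 0.04 for mural, and 0.15 for microglial sums, beside 0.10, 0.12, and 0.31 over all genes tested. Of the 39 listed genes, 37 passed the filter in the endothelial, 35 in the mural, and 34 in the microglial sums, and 0 were called in each (edgeR).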

How the data were processed

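Single-cell RNA was measured in 6 libraries, 1 per mouse. The authors deposited raw counts, 1 value of UMIs for each gene in each cell, from Cell Ranger 7.0.0 on mm10 with added *Clec7a* and *NOTCH3* sequences, for the cells it called. Strand and intron settings are not given in the sources used here. Cells with 500 to 4500 genes and under 10% mitochondrial UMIs were kept. No doublet caller was run, and clusters with markers of 2 lineages were left unnamed (6 unnamed clusters, 1954 cells, for this and other reasons). Clusters came from 2000 variable genes, without the members and listed genes, 30 principal components, 20 neighbours, and Leiden resolution 1 (leidenalg 0.10.2), and were named from marker lists. Counts were summed per mouse and class with at least 20 cells. After filterByExpr and TMM, genotypes were compared by edgeR 4.0.16 (glmQLFit, glmQLFTest; R 4.3.3) with Benjamini-Hochberg adjustment at 0.05 over all genes, and classes in the same way with the mouse as block. DESeq2 1.42.0 was an alternative. The test code was checked on simulated counts.

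The members and lists were chosen with earlier results of these data known, and the tests of fenestrated cells were added after the data were seen. Named genes are the members, *Thy1*, the 3 listed genes with the widest called difference per class contrast, and the 3 genes most like each member. Library totals were 26436229 to 59161203 UMIs. Each library is its own mouse, so differences between mice and between libraries cannot be told apart. Genotype p-values measure that spread. In the class contrasts, with the mouse as block, p-values measure how the difference within a mouse varied from mouse to mouse.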

Additional observations from a re-analysis of the deposited data

How the results depend on the processing

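No member was called for genotype under any of 53 counts of alternatives (RLE scaling, no expression filter, DESeq2, the replicate block, other cell filters and clusterings, genes or cells kept that were left out, the added cluster led by *Cst7*, and leaving out each mouse), and of 348 single log2 fold changes 302 kept their direction and 46 reversed, with 0 past the threshold. Most alternatives were run only for the pooled endothelial, mural, and microglial sums. Arterial, capillary, venous, pericyte, and smooth muscle sums had DESeq2 and the replicate block, and pericytes also a fit without *TgApp* ArcSwe replicate 2. Fenestrated sums were not among these counts. The reversed values lay within 0.351 of 0, and the cause was not tested. In endothelial cells *App* reversed to -0.0022 with RLE scaling, -0.0047 with no filter, -0.0083 with DESeq2, and -0.00013 with a stricter cell filter. In mural cells *Adam10* was 0.106 with the stricter filter and *Ncstn* -0.011 at cluster resolution 2. In microglia *Adam10* was 0.016 with RLE and *Ncstn* -0.050 with no filter. With the stricter filter *Aph1a* was 0.269 and *Adam10* 0.096, without the low-ribosomal clusters, which left 8 cells in *TgApp* ArcSwe replicate 2, *Aph1a* was 0.190, *Psenen* 0.040, and *Adam10* 0.234, and with the cluster led by *Cst7*, chosen after seeing the data, *Aph1a* was 0.091.

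Leaving out each mouse in turn gave, in endothelial cells, ranges of -0.068 to 0.046 for *App*, -0.016 to 0.075 for *Adam10*, -0.040 to 0.047 for *Aph1a*, -0.121 to 0.0090 for *Psen2*, -0.040 to 0.076 for *Psenen*, and 0.211 to 0.758 for *Bace2*. In mural cells the ranges were -0.036 to 0.082 for *App*, -0.225 to 0.086 for *Adam10*, -0.119 to 0.122 for *Ncstn*, -0.152 to 0.107 for *Psen2*, and -0.139 to 0.092 for *Psenen*. In microglia they were 0.269 to 1.01 for *App*, -0.895 to -0.332 for *Psenen*, -0.072 to 0.051 for *Adam10*, -0.206 to 0.082 for *Aph1a*, -0.038 to 0.721 for *Aplp2*, -0.351 to 0.555 for *Bace1*, -0.052 to 0.080 for *Ncstn*, and -0.064 to 0.384 for *Psen2*.

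Same-numbered mice correlated at 0.082, 0.164, and 0.365 for endothelial sums, at 0.047, -0.015, and 0.366 for mural sums, and at 0.233, 0.166, and 0.363 for microglial sums, so the replicate numbers met the limit for pairing (every value over 0.1) in microglia only. There the replicate block turned *Bace1* to -0.0034, and it changed no other call or direction of a member.

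Over all genes, DESeq2 called 10 in endothelial cells and 12 in microglia. With no filter 2 were called in mural cells and 6 in microglia. The 1 gene called in microglia became 0 with the stricter cell filter, 4 without the low-ribosomal clusters, 4 with the cluster led by *Cst7*, and 0 to 1 without 1 mouse, the call being kept only without WT replicate 3. Of 215 values of class contrasts 208 kept direction and call. The contrast of fenestrated with capillary cells was not rerun under any alternative and is not among them. The reversed ones, none called, were *Bace2* in mural against endothelial cells with the stricter filter (0.064), *Ncstn* (0.107) and *Aplp2* (0.010) in smooth muscle cells against pericytes in WT mice only, and *Psenen* in microglia with RLE (-0.051). In WT mice only, *Psenen* in arterial (edgeR, adjusted p = 0.140) and *Aph1a* in venous cells (edgeR, adjusted p = 0.0517) lost their calls, with 3 mice in place of 6, and *Psenen* in smooth muscle cells against pericytes gained one at resolution 2 (edgeR, adjusted p = 0.0278).

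Shares of cells depend on depth. Without thinning and at 2000 UMIs, a UMI of *App* was found in 97.1% and 93.6% of endothelial cells, *Bace1* in 29.5% and 11.8% of smooth muscle cells, and *Bace2* in 18.9% and 7.93% of fenestrated cells. *Bace2*, with 1 to 10 UMIs per mouse in pericytes, could not be compared there at this depth.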

Other observations

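A cluster of 605 cells led by *Cst7*, *Cxcl10*, *Tnf*, *Ccl4*, and *Ccl3* was left unnamed and was uneven between libraries, with 4, 2, and 19 cells in the WT mice and 132, 6, and 442 cells in the *TgApp* ArcSwe mice. *App* stood there at 146, 222, and 336 CPM in the *TgApp* ArcSwe mice, and *Ncstn* at 74.9, 118, and 68.6 CPM. The WT values, on so few cells, were 276, 175, and 228 CPM for *App* and 61.4, 117, and 51.7 CPM for *Ncstn*. The genotypes overlapped for both genes, and no test was run on this cluster alone.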
